A study of Mus musculus with 38 samples.

Results

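The response of the C57Bl6/J spleen to a low dose of X-rays was described here from the 4 two-colour arrays that carry this strain's label, out of 38 arrays in the series. On each array, spleen RNA of an irradiated mouse and of a sham-irradiated mouse competed for the same long-oligonucleotide spots. The irradiated mouse had received 10 rad (10 cGy) of X-rays in vivo and its spleen was taken 3.5 hr later, and the labels give males of 10 to 14 weeks for both groups. Arrays 11 and 96 held the irradiated RNA in Cy5, and arrays 95 and 97 held it in Cy3, with the sham RNA in the other dye. Each pair of mice was meant to be hybridized on 2 arrays with the dyes exchanged, so the 4 arrays come from 2 pairs of mice if every exchange is among them. The labels do not say which arrays belong together. All members are mice of 1 inbred strain with no transgene, and whole spleen was used, so that fewer cells of a type and less RNA per cell cannot be told apart. The other 34 arrays come from A/J, B6.C, Balb/C, C3H/HeJ and DBA/2J mice treated in the same way.

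The spleen filters blood and houses B cells, T cells, macrophages and, in mice, red cell precursors. Lymphocytes are among the cells most sensitive to ionizing radiation. X-rays break DNA, damage sensors such as the 9-1-1 clamp act on repair enzymes and on the transcription factor p53, and p53 induces genes that stop the cell cycle or start apoptosis.

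A deposited value is a signed number per spot of which no source used here states the scale or the log base, and it is therefore given as a score and not as a fold change. Each array was centred on the median of its probes, and the sign was turned on the arrays with irradiated RNA in Cy3. A positive turned value means more RNA in the irradiated spleen if the deposited ratios are Cy5 over Cy3, and less if they are Cy3 over Cy5. Of 21619 distinct probes, 9792 had a value on all 4 C57Bl6/J arrays, and 2925 of these could be named. The arrays differed in coverage, with 15715, 17088, 15580 and 12060 probes measured on arrays 11, 96, 95 and 97. Defining markers of spleen cells were measured in part: Cd79a and Ms4a1 of B cells and Slc4a1 of red cells had a value on 4 arrays, Cd79b, Cd3e and Thy1 on 3 arrays, and Cd3g on 1 array. Among markers of other tissues, Prss2 and Pnlip of pancreas, Prm1 of sperm and Mbp of myelin had a value on 4 arrays, and Tnp1 of sperm on 0 arrays.

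Before any turning of signs, 3 of the 4 C57Bl6/J arrays carried nearly the same pattern over probes, whichever dye held the irradiated RNA. Across the 9792 probes, array 96 correlated at r = 0.785 with array 11 and at r = 0.83 with array 95, and arrays 11 and 95 at r = 0.763. Array 97 ran against all of them, at r = -0.495 with array 11, -0.455 with array 96 and -0.569 with array 95. The same split appeared against the mean of the arrays of the other 5 strains with signs not turned, where r was 0.765, 0.754 and 0.74 for arrays 11, 96 and 95, and -0.606 for array 97. Probes are not independent replicates, and these correlations are a description. Array 97 fell below r = -0.3 with 8 of the 18 arrays of its own dye orientation, so its direction is not settled, and array 95 did so with 2 of 18. After turning as labelled, array 97 correlated at r = 0.495 with array 11 and 0.455 with array 96, and array 95 was the one that ran against the others, at -0.763, -0.83 and -0.569 with arrays 11, 96 and 97. The 2 arrays with irradiated RNA in Cy3 thus opposed each other as labelled, and with array 97 reversed they shared a sign that opposed arrays 11 and 96. The response was therefore computed with the sign of array 97 as labelled and reversed. The values of array 97 were also spread more widely around their centre, with a median absolute deviation of 1.08 against 0.578, 0.565 and 0.513 on arrays 11, 96 and 95.

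**Figure D1:**
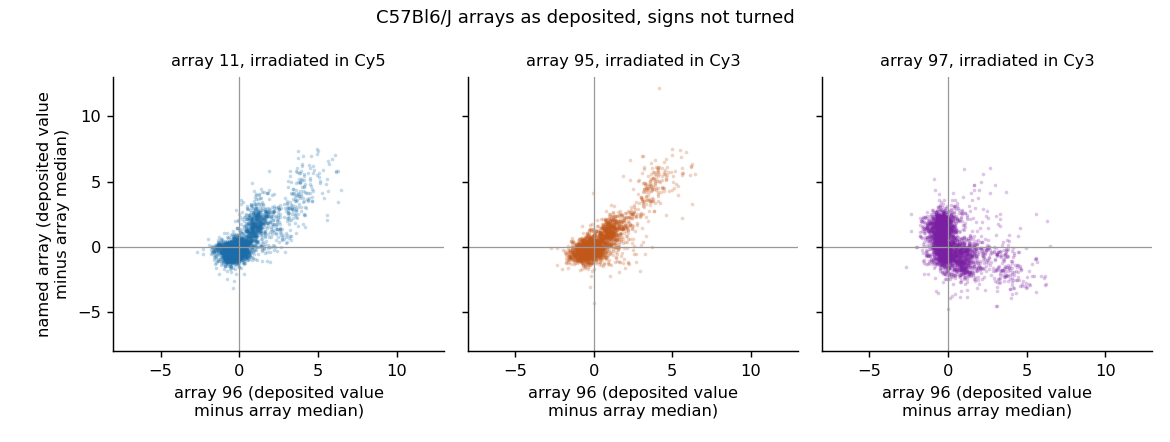
Centred deposited values of the named probes on arrays 11, 95 and 97 (vertical axes) against array 96 (horizontal axes), with no sign turned, in the deposited unit. Arrays 11 and 95 rise with array 96 although the dyes are exchanged on array 95, and array 97 runs the other way.

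The probes that make this pattern sat far out on one side. With signs not turned, 416 probes lay above 2 on each of arrays 11, 96 and 95, and 389 of these were below 0 on array 97, whereas 0 probes lay below -2 on the same 3 arrays. Genes of very different tissues were among them. Prm1, which packs DNA in sperm heads, had values of 7.01, 6.11 and 5.54 on arrays 11, 96 and 95 and -2.36 on array 97. Pecam1, an adhesion molecule of endothelium, had values of 5.70, 6.16 and 6.16 on arrays 11, 96 and 95 and -2.20 on array 97. The interleukin-2 receptor gene Il2ra of activated T cells had values of 6.58, 5.61 and 6.05 on arrays 11, 96 and 95 and -3.43 on array 97, and Cd4, the co-receptor of helper T cells, had values of 6.36, 3.96 and 6.11 on arrays 11, 96 and 95 and -3.19 on array 97. Arrays 11, 96 and 95 thus gave such genes one sign while the dyes were exchanged, and array 97 gave the other. After turning, Prm1 averaged 2.48, Il2ra 2.39 and Pecam1 1.98 as labelled, and 1.30, 0.68 and 0.88 with array 97 reversed. Over all probes, the mean of the 4 turned arrays correlated at r = 0.775 with the pattern of the other strains as labelled, at 0.047 with array 97 reversed and at -0.0105 without array 97.

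No probe of the C57Bl6/J response passed the adjusted test. In limma over 9792 probes with Benjamini-Hochberg adjustment, 0 probes had an adjusted p under 0.05 (0%), and the lowest adjusted p was 0.404. At an unadjusted p under 0.05, 592 probes (6.05%) lay on the positive side and 532 (5.43%) on the negative side. With the sign of array 97 reversed, again 0 probes passed (0%), the lowest adjusted p was 0.246, and 441 (4.5%) and 119 (1.22%) had an unadjusted p under 0.05. That call changed when the 4 arrays were averaged into pairs and fitted without the arrays of the other strains and without a dye term. Then 44 probes passed for the pairs 11 with 95 and 96 with 97, and 78 for the pairs 11 with 97 and 95 with 96. As labelled 0 passed in either pairing. With array 97 reversed and only the 4 arrays in the fit, not paired and with a dye term, 0 passed. Which pairing is right is not known. Of the probes with an unadjusted p under 0.05 on the positive side, 39 were the same under the 2 signs of array 97. That is 6.59% of those as labelled, where 4.5% of all probes were called with the sign reversed. It is 8.84% of those reversed, where 6.05% of all were called as labelled. On the negative side 11 were the same, 2.07% against 1.22% and 9.24% against 5.43%. Both settings share arrays 11, 96 and 95. The counts turned on single arrays. Leaving out array 95 gave 2400 probes with an adjusted p under 0.05, and array 97 was then the only array with irradiated RNA in Cy3. Leaving out array 11 or array 96 gave 1 probe each, and leaving out array 97 gave 0 with 107 at an unadjusted p under 0.05. Arrays were the units of these tests, whereas the mice are fewer if the dye exchanges are among them. An exact sign-flip test over 4 arrays cannot go below p = 0.125 (two-sided). The values below are therefore descriptions of 4 arrays, with each mean given ± its SD over the arrays (n = 4).

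Genes with the same turned sign on all 4 arrays are those for which both dye orientations pointed one way. As labelled there were 190 such probes on the positive side (1.94%) and 623 on the negative side (6.36%).

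On the positive side the leading named genes included genes of immune cells and of DNA damage signalling. Fcgr2b, the inhibitory receptor for IgG on B cells and macrophages, had turned values of 0.37 and 0.70 on arrays 11 and 96 and 0.37 and 2.26 on arrays 95 and 97, with a mean of 0.92 ± 0.90. Most of that mean came from array 97, and without it the mean was 0.45. Rad1, a subunit of the 9-1-1 clamp that signals DNA damage, had 0.47 and 0.31 on arrays 11 and 96 and 0.40 and 2.16 on arrays 95 and 97, a mean of 0.83 ± 0.89, with array 97 again well above the other 3. Ptprcap, which binds the CD45 phosphatase in lymphocytes, was more even, at 1.03 and 0.20 on arrays 11 and 96 and 0.69 and 1.17 on arrays 95 and 97 (mean 0.77 ± 0.43). St3gal4, a sialyltransferase, had 2.31 and 0.61 on arrays 11 and 96 and 0.23 and 0.56 on arrays 95 and 97, so that array 11 alone stood high. Ywhab, a 14-3-3 protein, averaged 0.65 ± 0.94, Med29, a subunit of the Mediator complex, 0.59 ± 0.30, and Pla2g2d, a secreted phospholipase of lymphoid tissue, 0.61 ± 0.50. The adjusted p of these 7 genes ran from 0.404 to 0.46. The sign of Fcgr2b, Rad1, Ywhab and Pla2g2d did not outlast the reversal of array 97, with means of -0.20, -0.25, -0.37 and -0.017, while Ptprcap, Med29 and St3gal4 stayed positive at 0.19, 0.13 and 0.65.

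Among genes with one sign on all arrays as labelled, the smallest unadjusted p-values were on the negative side, for Rpl37a and Papolb. Rpl37a, of the large ribosomal subunit, had -1.25 and -1.06 on arrays 11 and 96 and -0.0042 and -2.53 on arrays 95 and 97, averaging -1.21 ± 1.04, and it was close to 0 on array 95. Papolb, a poly(A) polymerase of the testis, had -0.95 and -1.33 on arrays 11 and 96 and -0.44 and -1.48 on arrays 95 and 97 (mean -1.05 ± 0.47). Mos, the kinase that holds oocytes in meiosis, had -0.83 and -0.68 on arrays 11 and 96 and -0.57 and -2.23 on arrays 95 and 97 (mean -1.08 ± 0.77). Array 97 gave the lowest value for these genes, and by the rule that chose them the other 3 arrays lay on the same side. Rpl27, also of the large subunit, had -1.44 and -0.70 on arrays 11 and 96 and -0.33 and -1.12 on arrays 95 and 97 (mean -0.90 ± 0.48). Tlr1, which pairs with Toll-like receptor 2 to sense bacterial lipopeptides, had -1.39 and -0.30 on arrays 11 and 96 and -1.01 and -2.09 on arrays 95 and 97 (mean -1.20 ± 0.75). Tfdp1, the partner of E2F factors at cell cycle genes, averaged -0.80 ± 0.47. Their adjusted p was 0.404 in limma for each of Rpl37a, Papolb, Mos, Rpl27, Tlr1 and Tfdp1. With array 97 reversed, Rpl27 and Papolb kept means of -0.34 and -0.31, and Rpl37a and Mos were at 0.054 and 0.035.

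With the sign of array 97 reversed, 448 probes had one sign on all 4 arrays on the positive side (4.58%) and 458 on the negative side (4.68%). Bpifa2, a secreted protein of salivary glands, was then the first on the positive side, with 1.19 and 1.41 on arrays 11 and 96, 0.76 on array 95 and 2.13 on the reversed array 97, and a mean of 1.37 ± 0.57. Kcnn1, a calcium-activated potassium channel, averaged 1.90 ± 1.70 and Irak1, the kinase downstream of Toll-like and interleukin-1 receptors, 1.29 ± 1.07. On the negative side stood Dcn, decorin, a proteoglycan of connective tissue, with -0.97 and -0.25 on arrays 11 and 96, -1.66 on array 95 and -0.68 on the reversed array 97 (mean -0.89 ± 0.59). Klra4, a Ly49 receptor of natural killer cells, averaged -0.83 ± 0.26, the ubiquitin ligase gene Ubr1 -0.84 ± 0.55 and Ppia, cyclophilin A, -0.77 ± 0.64. The adjusted p of each of these 7 genes with array 97 reversed was 0.809. By the rule that chose them, Dcn, Klra4, Ubr1 and Ppia share a side on arrays 11, 96 and 95. Their means without array 97 were -1.14, -0.73, -0.86 and -0.75. Ly49 receptor genes are near-identical copies of each other, so a long oligonucleotide may not tell Klra4 from its relatives. Tnfsf10, the death ligand TRAIL, was chosen after its values were seen, and it averaged -0.74 ± 0.55 with array 97 reversed and -0.31 as labelled.

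**Figure D2:**
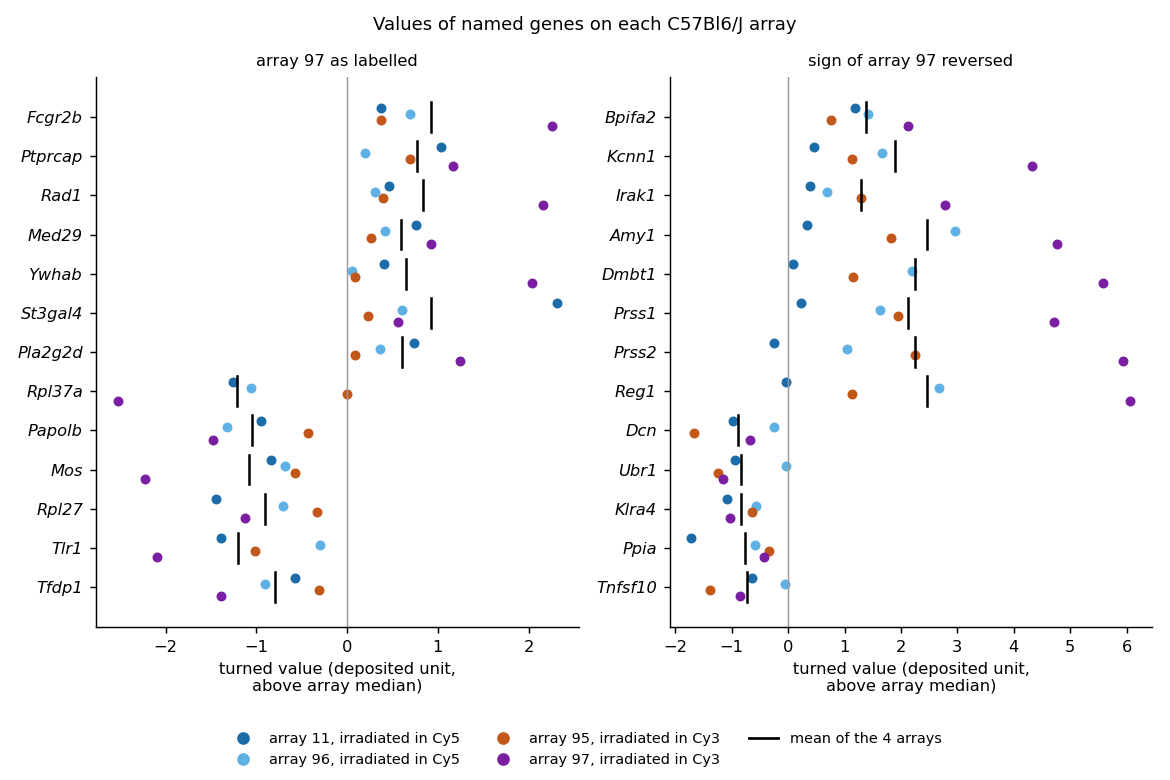
Turned values of named genes on each C57Bl6/J array in the deposited unit, with array 97 as labelled (left) and reversed (right); points are arrays and the black bar is the mean of the 4. On the left array 97 has the value of largest size for every gene but St3gal4 and Rpl27. On the right it has it for Bpifa2, Kcnn1, Irak1, Amy1, Dmbt1, Prss1, Prss2 and Reg1, and not for Dcn, Ubr1, Klra4, Ppia and Tnfsf10.

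Of the 29 gene lists, pancreas had the highest median on the C57Bl6/J arrays once array 97 was reversed. Its genes, mostly digestive enzymes of the acinar cells, are not known as spleen genes, and the tail of the pancreas lies against the spleen. Of 32 pancreatic genes on the array, 24 (75%) had a value on all 4 C57Bl6/J arrays, against 44.9% of all genes with a symbol. The median of these 24 was 0.26 and 1.14 on arrays 11 and 96, 0.91 on array 95 and -2.27 on array 97. Arrays 11, 96 and 95 thus lay on one side and array 97 on the other. The median of the gene means was -0.11 as labelled, where that of all 9792 probes was -0.12, and 1.10 with array 97 reversed, where that of all probes was 0.14. As labelled 0 of the 24 had an unadjusted p under 0.05. With array 97 reversed 8 of 24 did (33.3%, against 4.5% of all probes), every one on the positive side, and 0 passed after adjustment. Without array 97 the median was 0.74, against 0.0056 for all probes.

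The 8 genes encode enzymes and secreted proteins of the acinar cell, and apart from Pla2g1b they were chosen after their values were seen. Amy1, an amylase that digests starch, had 0.33 and 2.96 on arrays 11 and 96 and 1.82 and -4.76 on arrays 95 and 97, and a mean of 2.47 ± 1.87 with array 97 reversed (adjusted p = 0.81). Prss2, a trypsinogen, had -0.25 and 1.04 on arrays 11 and 96 and 2.25 and -5.94 on arrays 95 and 97, and a mean of 2.24 ± 2.67 with array 97 reversed. Reg1, a C-type lectin of acinar cells, had -0.037 and 2.67 on arrays 11 and 96 and 1.12 and -6.07 on arrays 95 and 97, averaging 2.46 ± 2.65 with array 97 reversed. For Prss2 and Reg1 array 11 was near 0, and for all 3 genes array 97 was far out. With array 97 reversed, the adjusted p of each of the 8 genes was 0.809. The mean with array 97 reversed was 2.25 for Dmbt1, a mucosal scavenger receptor, 2.13 for the trypsinogen gene Prss1, 2.10 for pancreatic lipase Pnlip, 1.99 for chymotrypsinogen Ctrb1 and 1.18 for pancreatic phospholipase Pla2g1b. Pnlip differed from the rest in its single values, at 2.46 and 5.60 on arrays 11 and 96 and -2.22 and -2.55 on arrays 95 and 97. The insulin gene Ins1 of the islets had 0.39 and 0.17 on arrays 11 and 96 and -0.1 and 0.58 on arrays 95 and 97, a mean of -0.031 with array 97 reversed and 0.26 as labelled. Trypsinogen genes and amylase genes are near-identical copies, so these probes may share RNA. Whether pancreatic tissue was carried along with some spleens was not tested.

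**Figure D3:**
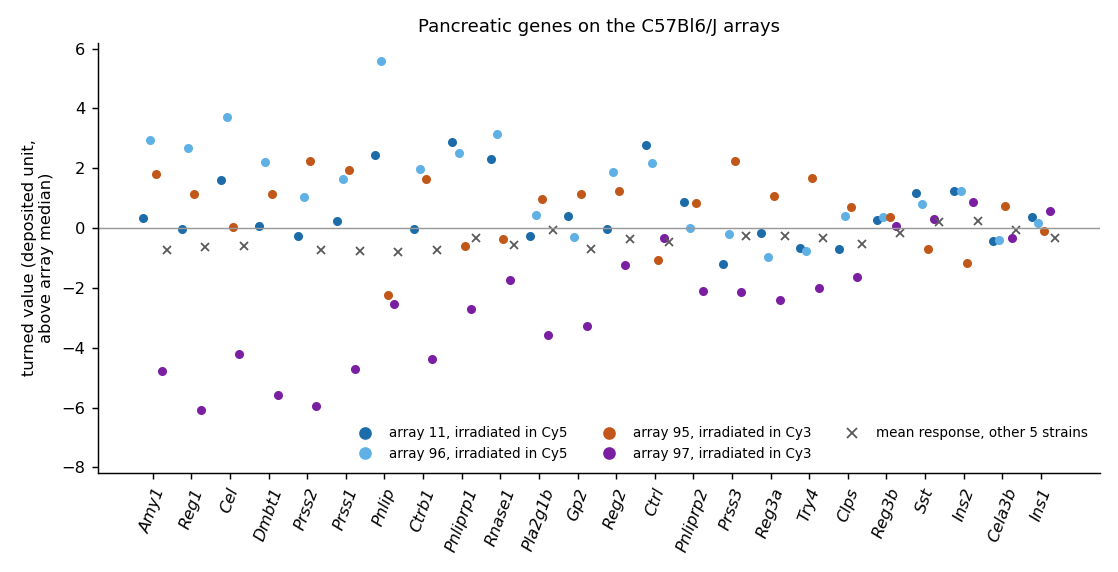
Turned values of the 24 pancreatic genes on each C57Bl6/J array (points) as labelled, and the mean response of the other 5 strains where it could be computed (crosses), in the deposited unit, ordered by the mean with array 97 reversed. Array 97 is the lowest of the 4 arrays for 19 of the 24 genes, and for the enzyme genes Cela3b and Ctrl and the islet genes Ins1, Ins2 and Sst it is not.

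Because most of these genes lay on one side on the same arrays, the stretch from 60 bases before to 20 bases after the start of 4 of them is shown from RefSeq promoters of GRCm38.p6, with each TATAAA, the letters of a TATA box, in capitals. Of the 24 genes 21 had a promoter entry, and 9 of them (42.9%) held TATAAA on either strand within the 50 bases before a start, as did 4 of 7 (57.1%) of the genes with p under 0.05 and 4.17% of all 27025 genes with an entry. The stretches shown are those of these 4 genes, so each holds TATAAA, and the rest of the 7 are not shown.
Prss1: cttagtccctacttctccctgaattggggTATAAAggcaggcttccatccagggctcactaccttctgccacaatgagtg
Prss2: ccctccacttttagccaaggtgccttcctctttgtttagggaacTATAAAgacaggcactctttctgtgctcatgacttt
Reg1: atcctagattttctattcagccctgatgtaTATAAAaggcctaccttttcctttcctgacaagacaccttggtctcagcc
Pnlip: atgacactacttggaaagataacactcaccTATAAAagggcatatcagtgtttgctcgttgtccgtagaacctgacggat
These lie on the plus strand at chr6:41458870-41458949 (Prss1), chr6:41521716-41521795 (Prss2), chr6:78425923-78426002 (Reg1) and chr19:58670305-58670384 (Pnlip). A match describes the letters and shows no factor at work.

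Ribosomal protein genes were the best covered list, with 47 of 55 (85.5%) measured on all 4 arrays. As labelled 8 of 47 (17%) had one sign on all arrays on the negative side, against 6.36% of all probes, and 0 of 47 did so on the positive side. With array 97 reversed these counts were 7 (14.9%, against 4.68%) and 0. The median of the gene means was -0.023 as labelled, -0.14 with array 97 reversed and -0.32 without it, and those of all probes were -0.12, 0.14 and 0.0056. At an unadjusted p under 0.05 as labelled, 5 of 47 (10.6%, against 5.43% of all probes) were on the negative side and 1 (2.13%, against 6.05%) on the positive side. With array 97 reversed these were 3 (6.38%, against 1.22%) and 0 (against 4.5%). Rps15, of the small subunit, had -1.50 and -0.60 on arrays 11 and 96 and -0.14 and -0.26 on arrays 95 and 97 (mean -0.63 ± 0.62, adjusted p = 0.4), and it kept its side with array 97 reversed, at -0.50. For comparison with the pancreatic promoters, 0 of the 31 ribosomal protein genes with an entry held TATAAA in the same 50 bases. In the whole 300 bases 18 (58.1%) held CGGAAG or its reverse complement CTTCCG, the letters of an ETS factor site, against 18.8% of all genes. The 2 leading members are shown from 60 bases before to 20 bases after the start, with those letters in capitals where present.
Rpl37a: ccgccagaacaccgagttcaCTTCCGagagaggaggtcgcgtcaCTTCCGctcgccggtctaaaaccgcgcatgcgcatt
Rpl27: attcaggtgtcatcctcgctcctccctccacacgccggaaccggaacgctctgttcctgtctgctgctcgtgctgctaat
They lie on the plus strand at chr1:72711200-72711279 (Rpl37a) and chr11:101442185-101442264 (Rpl27), and the stretch of Rpl27 holds neither form.

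Targets of p53, in a list that also holds the p53 gene Trp53, lay more on the negative side than on the positive side as labelled. Of 24 genes of this list on the array 12 were measured on all 4, with a median of -0.27. Of these 12, 5 (41.7%, against 6.36% of all probes) were negative on all arrays and 0 positive. Trp53, not a target, is 1 of the 5. Gadd45g, a stress sensor that slows the cell cycle, had -0.69 and -0.80 on arrays 11 and 96 and -0.12 and -1.69 on arrays 95 and 97 (mean -0.82 ± 0.65, adjusted p = 0.41). Btg2, an antiproliferative gene, had -0.62 and -0.16 on arrays 11 and 96 and -0.15 and -1.79 on arrays 95 and 97 (mean -0.68 ± 0.77, adjusted p = 0.43). Array 97 was the lowest for both, and with its sign reversed they averaged 0.02 and 0.22, the list had a median of -0.042, and 1 of 12 (8.33%, against 4.68%), Cdkn1a, was negative on all arrays. Cdkn1a, the p21 inhibitor of the cell cycle, and Trp53, which encodes p53 itself, were chosen after their values were seen, as genes a reader would look for. Cdkn1a had -0.45 and -0.27 on arrays 11 and 96 and -0.11 and 0.38 on arrays 95 and 97, a mean of -0.11 ± 0.36. Trp53 had -0.40 and -0.31 on arrays 11 and 96 and -0.012 and -0.24 on arrays 95 and 97, a mean of -0.24 ± 0.17 and an adjusted p of 0.62, negative on every array by little.

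Genes of DNA damage signalling and repair had a median on the positive side under both signs of array 97, 0.24 as labelled and 0.22 reversed, over 16 of 42 genes on the array, where those of all probes were -0.12 and 0.14. Without array 97 it was 0.097. As labelled 3 of 16 (18.8%, against 6.05% of all probes) had an unadjusted p under 0.05 on the positive side, Rad1 and Fanca among them, and with array 97 reversed 0 did. Fanca, of the Fanconi anemia complex that repairs crosslinks, had 2.12 and 1.55 on arrays 11 and 96 and -0.62 and 0.88 on arrays 95 and 97 (mean 0.98 ± 1.18). The adjusted p of Fanca and of Rad1 was 0.404. Fanca was negative on array 95 and positive on the other 3, which is how the shared pattern turns. Among 21 genes of apoptosis and survival 0 had an unadjusted p under 0.05 under either sign, and Bid, which links death receptors to mitochondria, was the only one negative on all arrays, with -0.85 and -0.29 on arrays 11 and 96 and -0.20 and -0.99 on arrays 95 and 97 (mean -0.58 ± 0.40).

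Signalling genes of the immune system lay on both sides of 0. Of 26 cytokine and chemokine genes, 2 (7.69%) were on the positive side and 2 on the negative side at an unadjusted p under 0.05 as labelled, against 6.05% and 5.43% of all probes. Cxcl13, which draws B cells into follicles, had 3.97 and 2.06 on arrays 11 and 96 and -1.49 and 0.11 on arrays 95 and 97, and its mean was 1.16 ± 2.37 as labelled (adjusted p = 0.4) and 1.11 reversed, since array 97 was near 0. The orientations disagreed all the same, with arrays 11 and 96 high and array 95 low. Cxcl12 and Ccl21a were the 2 on the negative side. Cxcl12, a retention signal for lymphocytes and precursors, had -0.87 and -0.75 on arrays 11 and 96 and 0.33 and -2.05 on arrays 95 and 97 (mean -0.84 ± 0.97), and Ccl21a, which guides T cells, had -0.52 and -0.48 on arrays 11 and 96 and 0.42 and -2.18 on arrays 95 and 97 (mean -0.69 ± 1.08). Their adjusted p was 0.404, and with array 97 reversed they averaged 0.19 and 0.40. Ccl21 genes are near-identical copies, and the probe may not separate them. In the interferon response, 1 of 15 genes (6.67%, against 5.43% of all probes) was on the negative side at an unadjusted p under 0.05 as labelled, Irf9, the DNA-binding subunit of the ISGF3 complex, with -0.80 and -0.51 on arrays 11 and 96 and -0.32 and -0.73 on arrays 95 and 97 (mean -0.59 ± 0.22). Its 4 values were close together, and it averaged -0.23 with array 97 reversed. Under that sign the 1 gene of 15 (6.67%, against 4.5%) was another, Tap1, a peptide transporter for MHC class I, on the positive side with a mean of 0.80 ± 0.94, and -0.30 as labelled.

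Markers of the spleen's cell types were described list by list. The 11 B cell genes had a median of -0.42 as labelled and 0.08 with array 97 reversed. Cd79a, a chain of the B cell receptor complex, had -0.70 and -0.78 on arrays 11 and 96 and 0.54 and -2.54 on arrays 95 and 97 (mean -0.87 ± 1.26, adjusted p = 0.4), so that array 95 was on the other side. Vpreb1, of the surrogate light chain of B cell precursors, was the only B cell gene with an unadjusted p under 0.05 under both signs of array 97, with -0.95 and -1.20 on arrays 11 and 96 and 0.004 and -0.037 on arrays 95 and 97, a mean of -0.55 ± 0.62 as labelled and -0.53 reversed. The arrays with irradiated RNA in Cy5 carried that value, and those with it in Cy3 were near 0. The median of the 10 T cell genes was 1.70 and 0.97 on arrays 11 and 96 and -1.74 and 0.74 on arrays 95 and 97, the sign of the shared pattern. Of 10 neutrophil granule genes, 2 (20%) were on the positive side at an unadjusted p under 0.05 as labelled and 0 with array 97 reversed, against 6.05% and 4.5% of all probes. Mmp8, neutrophil collagenase, averaged 0.89 ± 1.22 and S100a9, a calprotectin subunit, 1.24 ± 2.23, and with array 97 reversed they averaged -0.28 and -0.71. Both were negative on array 95 and positive on arrays 11, 96 and 97, as the shared pattern turns. The 15 macrophage genes had medians of -0.12 and -0.15. Of 31 red cell genes on the array 23 (74.2%) were measured on all 4, with medians of -0.15 and 0.081. Rhag, of the Rh complex in the red cell membrane, averaged 0.97 ± 1.47 as labelled, and Cpox, an enzyme of heme synthesis, -0.84 ± 0.92. These red cell genes thus lay on opposite sides as labelled, but averaged 0.48 and 0.20 with array 97 reversed. Rhag was negative on array 95 and positive on arrays 11, 96 and 97, as the shared pattern turns. The adjusted p of Vpreb1, Mmp8, S100a9, Rhag and Cpox ran from 0.404 to 0.427.

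Genes of stress responses and growth also lay on both sides. In oxidative stress defence, Gsta4, a glutathione transferase for lipid aldehydes, had 2.91 and 1.89 on arrays 11 and 96 and -1.34 and 1.66 on arrays 95 and 97 (mean 1.28 ± 1.83), and Gstm5, of another class of these enzymes, had -1.22 and -0.77 on arrays 11 and 96 and -0.087 and -0.64 on arrays 95 and 97 (mean -0.68 ± 0.47); the adjusted p was 0.404. Gsta4 was on the side of the shared pattern on array 95, and Gstm5 was negative on every array. Of 10 immediate early genes 4 (40%) were positive at an unadjusted p under 0.05 as labelled, against 6.05% of all probes, and 0 with array 97 reversed. All 4 were negative on array 95 and positive on arrays 11, 96 and 97, which is how the shared pattern turns. Atf3, a stress-induced transcription factor, had 2.74 and 1.61 on arrays 11 and 96 and -2.35 and 2.01 on arrays 95 and 97, a mean of 1.0 ± 2.29 as labelled and -0.0038 with array 97 reversed, and -0.09 without array 97. The 22 genes of the cell cycle and DNA replication had medians of -0.31 and 0.042, and Mcm2, of the replicative helicase, averaged -0.60 ± 0.61 and 0.036. In TGF-beta signalling and matrix, Ltbp2 is a matrix protein related to the binders of latent TGF-beta. It had 2.48 and 1.11 on arrays 11 and 96 and -0.74 and 2.35 on arrays 95 and 97. Its mean was 1.30 ± 1.50 as labelled and 0.13 with array 97 reversed. Ltbp2 was negative on array 95 and positive on arrays 11, 96 and 97, as the shared pattern turns. The paper reports it as down-regulated by irradiation and names no strain for this. Since the dye direction of the deposited values is not stated, the sign here cannot be set against that report. The median of the gene means in TGF-beta signalling and matrix was -0.37 as labelled and 0.24 with array 97 reversed. On array 97 the median of the list was -1.26, where those of arrays 11, 96 and 95 were 0.021, -0.43 and 0.16.

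**Figure D4:**
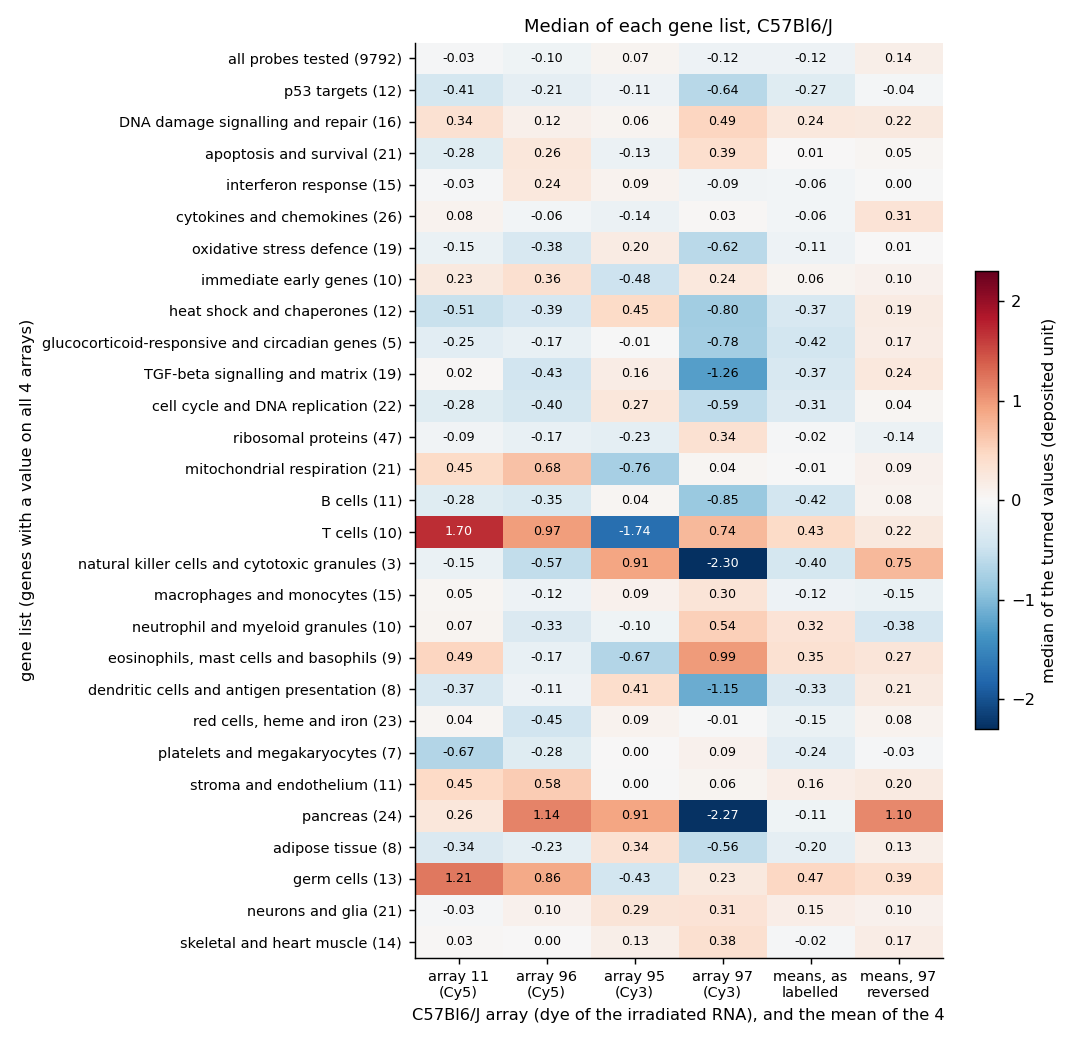
Median turned value of each gene list on each C57Bl6/J array (first 4 columns, with the dye of the irradiated RNA) and of the gene means with array 97 as labelled and reversed, in the deposited unit; numbers in brackets are genes measured on all 4 arrays. Pancreas is the row with the widest gap between array 97 (-2.27) and the other arrays, and the T cell row changes side between dyes among arrays 11, 96 and 95 (1.70 on array 11 and -1.74 on array 95).

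Whether the C57Bl6/J response differed from that of other strains was tested in the same limma fit, as the C57Bl6/J response minus the mean response of the other 5 strains, for 9481 probes. As labelled 0 probes passed after adjustment (0%), and 289 (3.05%) were higher and 570 (6.01%) lower in C57Bl6/J at an unadjusted p under 0.05. With array 97 reversed 0 passed (0%), with 656 (6.92%) higher and 202 (2.13%) lower. Leaving out array 95 gave 1526 probes after adjustment. The 5 genes with the smallest p as labelled were Msh4, Slc2a3, Golga4, Papolb and Rpl37a. Msh4, a meiotic member of the mismatch repair family, averaged -0.55 ± 1.41 in C57Bl6/J and 1.56 in the other strains, a difference of -2.11 ± 0.36 (SE, adjusted p = 0.073). Its C57Bl6/J values were -0.056 and 0.40 on arrays 11 and 96 and 0.085 and -2.64 on arrays 95 and 97, so arrays 11, 96 and 95 were closer to 0 than array 97, and with array 97 reversed its mean was 0.77 and the adjusted p 0.53. Slc2a3, the glucose transporter GLUT3, averaged 2.20 ± 2.66 in C57Bl6/J and 0.14 in the other strains (adjusted p = 0.46), from C57Bl6/J values of 5.79 and 1.87 on arrays 11 and 96 and -0.64 and 1.77 on arrays 95 and 97. Golga4, a golgin of the trans-Golgi network, averaged 1.45 ± 1.86 in C57Bl6/J and -0.12 in the other strains (adjusted p = 0.46). For Slc2a3 and Golga4 array 11 was the highest and array 95 lay on the other side of 0. Papolb and Rpl37a, described above, averaged -1.05 and -1.21 in C57Bl6/J, and 0.035 and -0.047 in the other strains. As labelled the differences of Slc2a3, Golga4, Papolb and Rpl37a from the other strains were 2.06, 1.57, -1.08 and -1.16. With array 97 reversed they were 1.18, 0.60, -0.34 and 0.10, and their adjusted p in limma then ran from 0.53 to 0.97.

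Pancreatic genes lay on opposite sides in C57Bl6/J and in the other strains once array 97 was reversed. The median of their means was then 1.10 over the 24 genes in C57Bl6/J, and -0.418 in the other strains over the 22 genes that could be compared. Of these 22 genes, 9 had an unadjusted p under 0.05 for the difference, on either side, with array 97 reversed, and 0 did as labelled. Of all 9481 probes, 858 did so with array 97 reversed, 6.92% higher and 2.13% lower. Amy1 averaged 2.47 in C57Bl6/J with array 97 reversed, 0.087 as labelled and -0.73 in the other strains. For Prss2 these means were 2.24, -0.73 and -0.73, and for Reg1 2.46, -0.58 and -0.62. No pancreatic gene passed after adjustment, with an adjusted p of 0.49 for Amy1 with array 97 reversed.

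**Figure D5:**
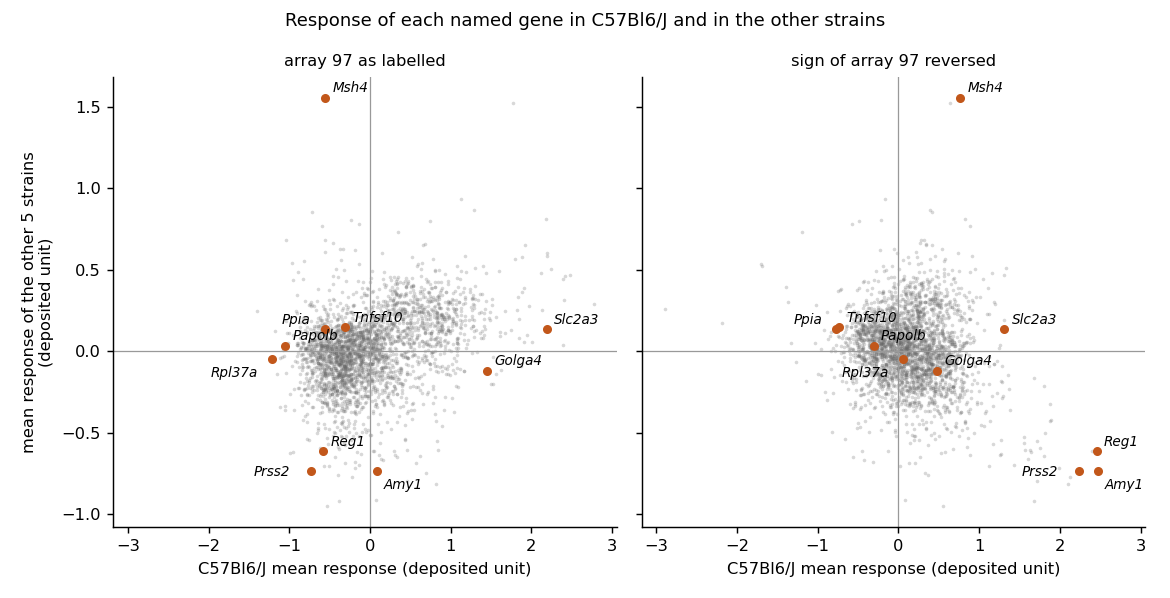
Mean response of each named probe in C57Bl6/J (horizontal) and in the other 5 strains (vertical), in the deposited unit, with array 97 as labelled (left) and reversed (right); each point is a gene. As labelled Slc2a3 and Golga4 lie to the right, and with array 97 reversed Amy1, Prss2 and Reg1 lie at the lower right, positive in C57Bl6/J and negative in the other strains.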

How the data were processed

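RNA of irradiated and of sham-irradiated spleens was hybridized together on long-oligonucleotide arrays. Per the methods, poor and dim spots were removed, local background was subtracted and Lowess normalization was applied within arrays. The authors deposited signed scores, 1 for each spot on an array. No source used here states their log base, centring or dye direction, so the array medians (-0.0016 to 1.12 on the C57Bl6/J arrays) were subtracted and no fold change was computed. The 0 value columns without a sample needed no exclusion.

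Control spots were left out, and the spots of 35 probes printed several times were averaged. Accessions matched 6518 of 21619 probes to 1 symbol in a RefSeq gene table (GRCm38.p6). A linear model with moderated tests (limma 3.58.1 under R 4.3.3) was fitted over all 38 centred arrays with a response term and a dye term for each strain, and p-values were adjusted by Benjamini-Hochberg over all probes. The C57Bl6/J coefficient is the mean of the 4 turned values. Log values had been foreseen, and scores were tested instead. Per-gene errors are the SD over 4 arrays, and the number of arrays limits the precision. The code was tested on simulated data.

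The genes named were, among those measured on all 4 arrays, up to 10 a side with one sign on all arrays, up to 6 a side with one sign once array 97 was reversed, up to 3 of each of 29 lists by smallest p, 5 by smallest p for the difference between strains, and those the paper names. Some genes that qualified are not reported here. The members and the lists were chosen with earlier results of these data known. Alternatives covered centring, scaling, the sign of array 97, each array left out, the dye term, arrays paired in both possible ways, missing values, spots and the spread. Those that combine the sign of array 97 with another choice, and those that remove the pattern shared with other strains, were added after seeing the data.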

Additional observations from a re-analysis of the deposited data

Results flagged for a closer look

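Among the 4 turned values of each gene named in the text, 4 genes had 1 value that stood apart from the other 3 by Dixon's criterion, which chance meets in about 1 of 20 groups. For Rad1 this was array 97 at 2.16, for Mos array 97 at -2.23, for Tap1 array 97 at -2.20 and for Msh4 array 97 at -2.64. Array 97 was the array set apart in 4 of the 4 cases among 62 sets of values looked at. That count is close to the chance rate just given, and the share of all probes that meet the criterion was not computed. Array 97 also had the widest spread of the 4 C57Bl6/J arrays. Its direction is not settled, and its part in these values was not tested beyond the values given with its sign reversed.

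The 60 genes named in the text were also compared with each other strain in turn. For 3 genes every C57Bl6/J array lay on one side of 0 and every measured array of another strain on the other side. The difference between these pairs of strains was not tested. Some of the 60 genes, Ywhab among them, were named because they had one sign on all C57Bl6/J arrays, which makes such a split easier to meet. How many genes would meet it by chance, and the share of all probes that do, were not computed. Ywhab averaged 0.647 in C57Bl6/J and -0.709 in C3H/HeJ. Trp53 averaged -0.239 in C57Bl6/J and 0.373 in C3H/HeJ. Irf9 averaged -0.593 in C57Bl6/J and 0.456 in B6.C. Reversing the sign of array 97 must split values that share one side, so that reversal says nothing more about these genes.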

How the results depend on the processing

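The adjusted count of the C57Bl6/J response was 0 as labelled, and it ranged over 0 to 2400 when 1 array at a time was left out, with array 95 giving the highest count. It was 47 when probes with a value in each dye orientation sufficed, which tested 16040 probes, and 0 with the other single changes of processing. With the arrays averaged into pairs as a replicate block, 0 probes passed in either pairing as labelled. The fit of these pairs held only the C57Bl6/J arrays and no dye term. With the sign of array 97 reversed, the replicate block gave 44 probes for the pairs 11 with 95 and 96 with 97, and 78 for the pairs 11 with 97 and 95 with 96. The labels do not number the pairs, so neither pairing is known to be right. The count at an unadjusted p under 0.05, 1124 as labelled, was 94 without centring, 573 with arrays scaled, 560 with array 97 reversed, 107 to 3823 leaving out 1 array, 699 with 1 dye term, 53 with only the 4 arrays, and 188 and 77 under the replicate block in the 2 pairings. Of the alternatives added later, reversal of array 97 gave 429 with only the 4 arrays, 614 and 646 with the 2 pairings, 66 without centring and 509 without the pattern shared with other strains, and removing that pattern alone gave 272. For the difference from the other 5 strains, the adjusted count was 0, with 0 to 1526 leaving out 1 array and 12 in probes with fewer values. Its unadjusted count of 859 was 33 without centring, 537 scaled, 167 to 3072 leaving out 1 array, 524 with 1 dye term, 87 with array 97 reversed and no centring, and 279 without the shared pattern. The median of the ribosomal protein genes moved by over 1 SD of the array medians in 1 alternative, to -0.319 without array 97, and leaving out 1 array gave -0.319 to 0.106. Over all lists, 20 of 406 medians moved by more than that SD, among them with array 97 reversed those of cytokines and chemokines (0.314, against -0.0631 as labelled) and of neutrophil granules (-0.379, against 0.317). That SD includes array 97, so it is wide for lists in which array 97 stands apart, and a median that did not count as moved need not be stable. The pancreas median went from -0.106 as labelled to 1.10 with array 97 reversed, and at an SD of 1.57 did not count. Nor did that of TGF-beta signalling and matrix, from -0.368 to 0.24 at an SD of 0.641. The cause of these changes was not tested.

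Of 60 genes named in the text, 27 changed side with array 97 reversed: Fcgr2b (-0.20), Rad1 (-0.25), Ywhab (-0.37), Pla2g2d (-0.0165), Rpl37a (0.0542), Mos (0.035), Kcnn1 (1.90), Irak1 (1.29), Gadd45g (0.0198), Btg2 (0.22), Tap1 (0.80), Cxcl12 (0.19), Ccl21a (0.40), Atf3 (-0.00376), Cd79a (0.40), Mmp8 (-0.28), S100a9 (-0.71), Cpox (0.20), Mcm2 (0.0363), Msh4 (0.77), Prss2 (2.24), Prss1 (2.13), Reg1 (2.46), Ctrb1 (1.99), Dmbt1 (2.25), Pla2g1b (1.18) and Ins1 (-0.0307). With arrays scaled by their median absolute deviation Kcnn1 (0.48), Irak1 (0.46), Prss2 (0.0709), Prss1 (0.69), Reg1 (0.31), Ctrb1 (0.66) and Dmbt1 (0.28) changed side, and without centring Irak1 (0.0604) and Cdkn1a (0.0542) did. Leaving out 1 array at a time turned the sign of Bpifa2 (-0.42 to 1.03), Kcnn1 (-1.64 to 1.10), Irak1 (-1.12 to 0.91), Dcn (-1.14 to 0.0357), Klra4 (-0.73 to 0.10), Ubr1 (-0.86 to 0.33), Cdkn1a (-0.23 to 0.0114), Tap1 (-0.91 to 0.30), Tnfsf10 (-0.87 to 0.25), Atf3 (-0.09 to 2.09), Cd4 (-0.47 to 4.18), Pecam1 (-0.11 to 4.06), S100a9 (-0.0371 to 2.52), Msh4 (-1.24 to 0.13), Amy1 (-1.56 to 1.73), Prss2 (-2.77 to 1.32), Prss1 (-1.89 to 1.44), Reg1 (-2.38 to 1.22), Ctrb1 (-1.70 to 1.32), Dmbt1 (-2.22 to 1.15) and Pla2g1b (-1.74 to 0.54), given as the lowest and highest mean. The other single changes of processing turned the sign of 0 of the 60 genes. Coverage limits these results, since 12060 probes had a value on array 97 and 17088 on array 96.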

Other observations

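Genes of other tissues that the spleen is not known to use were measured on the C57Bl6/J arrays too. The 13 germ cell genes had medians of 1.21 and 0.86 on arrays 11 and 96 and -0.43 and 0.23 on arrays 95 and 97. The 14 muscle genes had 0.031, 0.0021, 0.13 and 0.38 on the same arrays, and the 21 neuron and glia genes -0.032, 0.096, 0.29 and 0.31. The 8 adipose genes had -0.34, -0.23, 0.34 and -0.56. None of these lists had array 97 as far from the other 3 arrays as the pancreatic genes did.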
